A study of Homo sapiens with 9 samples.

Results

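Long noncoding RNAs (lncRNAs) are transcripts that work without being translated. The 7 well-known ones chosen here by symbol are MALAT1, NEAT1, TUG1, MEG3, H19, KCNQ1OT1 and MIR22HG. Of these 7 symbols, 6 were matched among the 24462 gene symbols counted, and MIR22HG, the host transcript of the microRNA miR-22, is not analysed here. The choice was by symbol and used no measured value as a rule, but it was made with earlier results of these data known. The RNAs were followed in U-373MG, an established human glioblastoma and astrocytoma cell line, in 3 groups of 3 libraries. The first group was untreated control cells. The second had received 200 nM of NnK-1 for 48 h, and the third 200 nM of CBRV1-10493 for 48 h. Both agents are synthetic peptides modelled on jellyfish sequences and resemble ShK, a sea anemone toxin that blocks a voltage-gated potassium channel. Both peptides were set against the same control libraries, and the sources used here give neither a vehicle nor a culture time for those controls. Cells of 1 line stand for the tumour. The labels speak of biological replicates for the peptides without naming separate cultures, so a p-value here covers library-to-library spread, part of which may be technical.

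MALAT1 and NEAT1 are nuclear RNAs read from neighbouring genes. MALAT1 gathers in nuclear speckles, where splicing factors are stored, and NEAT1 is the scaffold on which paraspeckles, another kind of nuclear body, assemble. H19, MEG3 and KCNQ1OT1 come from imprinted domains, where 1 parental copy is silent: H19 and MEG3 are read from the maternal copy and KCNQ1OT1 from the paternal one. KCNQ1OT1 is a long unspliced RNA antisense to the potassium channel gene KCNQ1 that stays on its chromosome and silences neighbouring genes. TUG1 is a widely expressed lncRNA found in both nucleus and cytoplasm.

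The assay, QuantSeq, starts from an oligo(dT) primer and so reads a transcript next to its poly(A) tail or next to a run of A inside it. Such stretches are shown because they are where this method can find lncRNAs. The first 4 lines hold the longest run of A in the longest annotated transcript of each RNA, with runs of 10 or more A in capitals. The last 4 lines are the final 50 bases of an annotated transcript that carries the polyadenylation signal AATAAA, in capitals. All are written 5′ to 3′ on the transcript strand, from the GENCODE 29 transcripts.
MALAT1, A run: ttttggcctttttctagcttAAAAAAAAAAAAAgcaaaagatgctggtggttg
NEAT1, long form, A run: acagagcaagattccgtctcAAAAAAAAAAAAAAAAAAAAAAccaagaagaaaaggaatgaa
TUG1, A run: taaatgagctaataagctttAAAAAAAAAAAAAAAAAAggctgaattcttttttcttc
KCNQ1OT1, A run: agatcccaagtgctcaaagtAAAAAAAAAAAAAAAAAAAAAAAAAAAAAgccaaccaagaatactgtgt
NEAT1, short form, end: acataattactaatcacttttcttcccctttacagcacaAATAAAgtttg
TUG1, end: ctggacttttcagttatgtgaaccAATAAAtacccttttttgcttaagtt
MEG3, end: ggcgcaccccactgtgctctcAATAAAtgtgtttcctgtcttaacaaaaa
H19, end: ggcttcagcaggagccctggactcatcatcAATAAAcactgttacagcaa

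In GRCh38 coordinates, which are not those of the build the counts were made on (hg19), the MALAT1 stretch lies at chr11:65506078-65506130 on the plus strand. It is exonic, as are all 8 stretches, and the long form of NEAT1 has its stretch at chr11:65440823-65440884 (plus). The TUG1 run stands at chr22:30976044-30976101 (plus) and the KCNQ1OT1 run at chr11:2610697-2610765 (minus). The 4 ends stand at chr11:65426464-65426513 for the short form of NEAT1, chr22:30978799-30978848 for TUG1, chr14:100860977-100861026 for MEG3 (all plus) and chr11:1995176-1995225 for H19 (minus). The A-rich stretch of MALAT1 is the well-known one before the site at which RNase P cuts the RNA. The mature MALAT1 therefore ends in A encoded by the genome and not in an added tail. The bases that follow the cut, not those right after the capitals, belong to a small tRNA-like RNA.

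The RNAs differed in how many such runs they hold. A search for AAAAAAAAAA or longer, on the transcript strand alone, found 17 runs in the 91667 bases of KCNQ1OT1, 5 in the 22743 bases of long NEAT1, 2 in the longest MEG3 transcript (12990 bases), and 1 each in MALAT1 (8708 bases) and TUG1 (7469 bases). H19 (2348 bases) had 0, and its longest run of A was 5. Per kb this is 0.185 runs for KCNQ1OT1, 0.220 for NEAT1, 0.154 for MEG3, 0.134 for TUG1 and 0.115 for MALAT1, against 0.0838 over all 29566 lncRNA transcripts of GENCODE 29, of which 7.40% hold a run. The signal AATAAA stood in the last 50 bases of 21 of 48 MEG3 transcripts, 6 of 12 of H19, 6 of 17 of MALAT1, 5 of 20 of TUG1, 1 of 8 of NEAT1 and 0 of 1 of KCNQ1OT1. It stood there in 30.6% of all lncRNA transcripts. The deposited counts hold no read positions, so they do not show which stretch the reads of an RNA came from, nor how the short and long forms of NEAT1 shared them.

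The libraries held 11203094 to 13491075 counts, and 13676 genes were tested. As markers of the labelled cell type, VIM stood at 5661 CPM (counts divided by the library total and given per 1e6, mean of 9 libraries), NES at 1424, CD44 at 1152, SOX9 at 587 and SOX2 at 430 CPM. GFAP, the filament protein of astrocytes, stood at 23.4 CPM, and of the 15 astrocyte and glioma markers ALDH1L1 had 0 counts while AQP4 and CHI3L1 had 4 counts each over all libraries. The summed level of the 6 endothelial markers was 0.893 to 3.79 CPM, of the 8 immune markers 3.12 to 8.30 CPM and of the 6 epithelial markers 9.82 to 12.7 CPM. Markers of neurons summed to 450 to 597 CPM, most of it from TUBB3 and MAP2, while SYP and RBFOX3 had 9 and 11 counts over all libraries. The 8 oligodendrocyte markers summed to 375 to 457 CPM. The markers named here beyond the 5 highest glial ones were picked after their values were seen. On the first principal component NnK-1 replicate 2 lay apart (52.1, the others from -18.6 to 9.00), and on the second CBRV1-10493 replicate 1 (-44.9, the lowest of the others -9.79).

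The levels of the 6 RNAs spanned a wide range, from MALAT1 down to H19. MALAT1 stood at 10377 ± 2068 CPM over the 9 libraries (mean ± SD) and ranked 2nd of all genes by mean CPM, with 1.04% of all counts. NEAT1 stood at 619 ± 90.0 CPM, TUG1 at 137 ± 11.6 CPM, KCNQ1OT1 at 41.8 ± 6.02 CPM and MEG3 at 10.9 ± 2.10 CPM. H19 had 23 counts in all 9 libraries together, a mean of 0.212 CPM, and 3 libraries were at 0. In CPM this order held in 9 of 9 libraries, and no RNA overlapped the next one in the order. The word abundant thus described MALAT1 and NEAT1, while MEG3 ranked 8890th and H19 14997th by mean CPM.

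Set per kb of annotated exon the order changed at 1 place. MALAT1 had 1175 CPM per kb (mean of 9 libraries), NEAT1 27.2 and TUG1 13.5. MEG3 had 0.468 CPM per kb (0.256 to 0.561) and KCNQ1OT1, an RNA of 91.7 kb, had 0.456 (0.390 to 0.563), so these neighbours in the order overlapped. H19 stayed last at 0.0733 CPM per kb (0 to 0.246). A method that reads transcript ends does not count in proportion to length, so both scales are given.

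**Figure D1:**
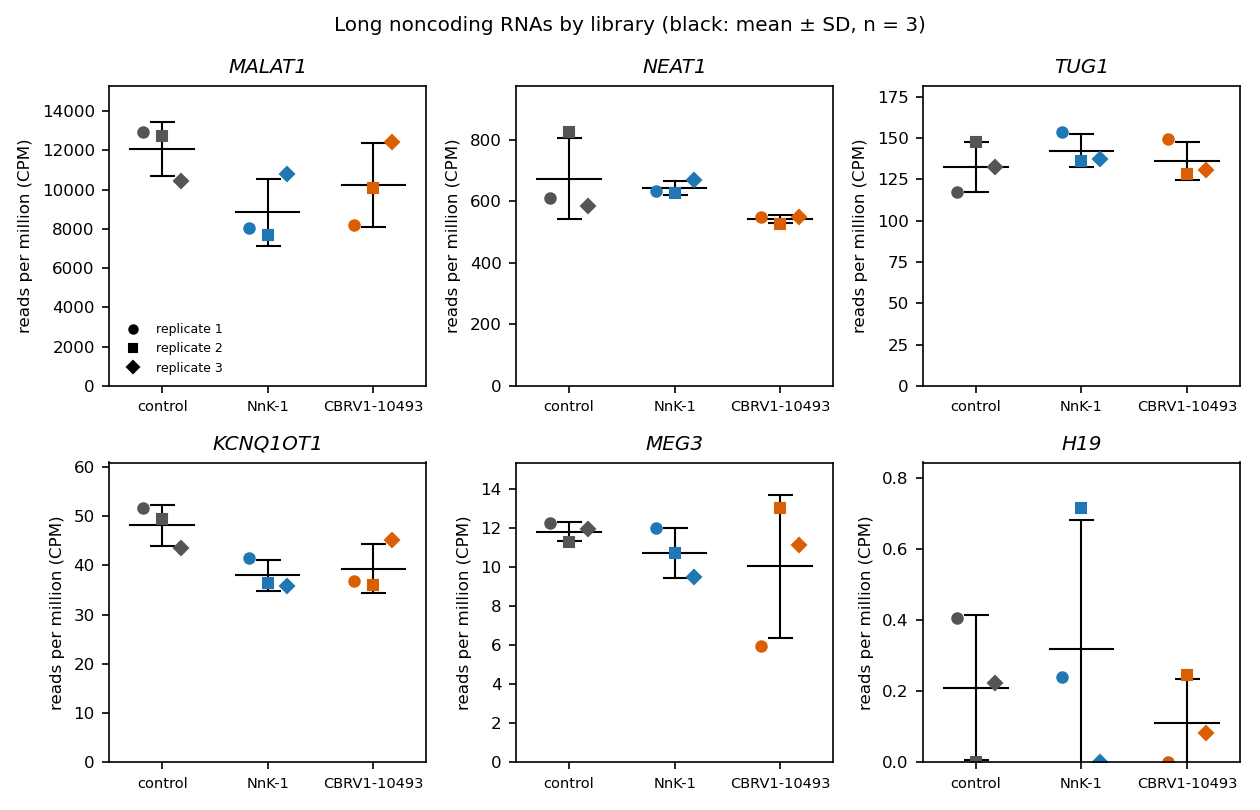
CPM (vertical axis starting at 0) of 6 lncRNAs in the 9 libraries, by group; each point is 1 library, its shape the replicate number, and black lines give the mean ± SD of 3 libraries (the SD bars of H19 with either peptide reach below the axis). The KCNQ1OT1 points of NnK-1 (35.8 to 41.6 CPM) lie under all control points (43.5 to 51.6 CPM), and the NEAT1 points of CBRV1-10493 (526 to 550 CPM) lie under all other NEAT1 points.

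MALAT1, the speckle RNA, was counted 86214 to 160479 times per library. In the control libraries it stood at 12946, 12743 and 10459 CPM. With NnK-1 it stood at 8030, 7696 and 10801 CPM, and with CBRV1-10493 at 8191, 10086 and 12442 CPM. Replicates 1 and 2 of NnK-1 were below every control library and replicate 3 was above the lowest control, so the groups overlapped, as did CBRV1-10493 and the controls. The group means were 12050 ± 1381 CPM for control, 8842 ± 1705 for NnK-1 and 10240 ± 2130 for CBRV1-10493 (mean ± SD, n = 3). At these counts sampling alone gives a coefficient of variation (CV, the SD over the mean) of about 0.255% in the controls, while the measured one was 11.5%. The spread between libraries was larger than counting error. In bulk RNA a lower level per cell and fewer cells with a high level cannot be told apart.

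For NnK-1 against control the log2 fold change of MALAT1 was -0.42 (SE 0.13, 95% interval -0.68 to -0.16), a difference of -25.2% in level, with 2 of 3 NnK-1 libraries below all controls. By edgeR's quasi-likelihood test with Benjamini-Hochberg adjustment over all genes its adjusted p was 0.578, so it did not pass. With no filter on low counts it did (-0.42, edgeR adjusted p = 7.5e-05), in a fit that gave each gene's own spread no weight; under the other alternatives the adjusted p was 0.202 or higher. It was the gene with the 77th smallest p of the 13676 tested. Leaving out 1 library at a time gave values from -0.59 (without NnK-1 replicate 3) to -0.34 (without NnK-1 replicate 2, the library that lay apart). For CBRV1-10493 against control the log2 fold change was -0.22 (interval -0.48 to 0.043, edgeR adjusted p = 1.00). This value rested on single libraries: it was -0.088 without CBRV1-10493 replicate 1, which lay apart, and -0.38 without CBRV1-10493 replicate 3.

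NEAT1, the paraspeckle scaffold, stood at 609, 825 and 586 CPM in the control libraries. With NnK-1 it stood at 635, 625 and 669 CPM, and with CBRV1-10493 at 550, 526 and 550 CPM. Every CBRV1-10493 library was below every control and every NnK-1 library, while NnK-1 and control overlapped. The treated groups were tight, with a CV of 2.56% for CBRV1-10493 and 3.61% for NnK-1, against 19.6% in the controls, where replicate 2 stood high.

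For CBRV1-10493 against control the log2 fold change of NEAT1 was -0.30 (SE 0.11, interval -0.52 to -0.077), a difference of -18.6% in level, with 3 of 3 libraries below all controls. It did not pass by edgeR's quasi-likelihood test (adjusted p = 1.00), and its p ranked 65th of 13676. Without control replicate 2 it was -0.13 (edgeR adjusted p = 1.00). The same control library was the highest in interferon-stimulated genes, whose 38 members summed to 1628 CPM there, against 1129 and 1134 CPM in the other two controls, 1065 to 1109 CPM with NnK-1 and 1071 to 1210 CPM with CBRV1-10493. The part of these genes in the NEAT1 value was not tested. For NnK-1 against control NEAT1 was at -0.039 (interval -0.26 to 0.18, edgeR adjusted p = 0.964), and at 0.13 without control replicate 2.

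KCNQ1OT1, the antisense RNA of the KCNQ1 domain, was counted 409 to 635 times per library. In the controls it stood at 51.6, 49.4 and 43.5 CPM. With NnK-1 it stood at 41.6, 36.5 and 35.8 CPM, and with CBRV1-10493 at 36.8, 36.0 and 45.1 CPM. All NnK-1 libraries were below all controls, and 2 of 3 CBRV1-10493 libraries were. The log2 fold change was -0.32 for NnK-1 (SE 0.13, interval -0.60 to -0.038, a difference of -19.7% in level) and -0.28 for CBRV1-10493 (SE 0.13, interval -0.56 to -0.00033, a difference of -17.6%). Neither passed by edgeR's quasi-likelihood test (adjusted p = 0.637 and 1.00). Both values were taken against the same controls and are not independent of each other. Leaving out 1 library at a time gave -0.38 to -0.27 for NnK-1 and -0.39 to -0.22 for CBRV1-10493. In the controls the CV was 8.68%, where sampling alone gives 4.03%. Over all 9 libraries, differences between groups included, it was 14.4%.

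TUG1 stood at 117, 148 and 133 CPM in the controls, at 154, 136 and 137 CPM with NnK-1 and at 149, 128 and 131 CPM with CBRV1-10493. The 3 groups overlapped, and TUG1 was the steadiest of the 6, with a CV of 8.47% over 9 libraries. It was the one RNA of the 5 tested with positive values against control, at 0.13 for NnK-1 (interval -0.095 to 0.35, edgeR adjusted p = 0.826) and 0.053 for CBRV1-10493 (-0.17 to 0.28, adjusted p = 1.00). In level these intervals run from -6.40% to 27.9% for NnK-1 and from -11.2% to 21.3% for CBRV1-10493.

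MEG3, a transcript that is often silenced in tumours, was scarce, at 72 to 161 counts per library. It stood at 12.3, 11.3 and 11.9 CPM in the controls, 12.0, 10.7 and 9.48 CPM with NnK-1, and 5.96, 13.0 and 11.1 CPM with CBRV1-10493. CBRV1-10493 replicate 1, the library that lay apart on the second component, was the lowest of the 9 and CBRV1-10493 replicate 2 the highest. The log2 fold change was -0.11 for NnK-1 (interval -0.64 to 0.41, edgeR adjusted p = 0.957) and -0.22 for CBRV1-10493 (-0.75 to 0.30, adjusted p = 1.00). Without CBRV1-10493 replicate 1 the second value was 0.040. Counting error is large at this depth, with a CV of 8.13% in the controls from sampling alone.

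H19 had 5, 0 and 3 counts in the controls, 3, 8 and 0 with NnK-1 and 0, 3 and 1 with CBRV1-10493. Each group had a library at 0, which allows a level of up to 0.238 CPM in control replicate 2, 0.247 CPM in NnK-1 replicate 3 and 0.248 CPM in CBRV1-10493 replicate 1. These limits cover counting error only. H19 did not pass the filter on low counts, so no test was made and no difference was detectable at this depth.

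**Figure D2:**
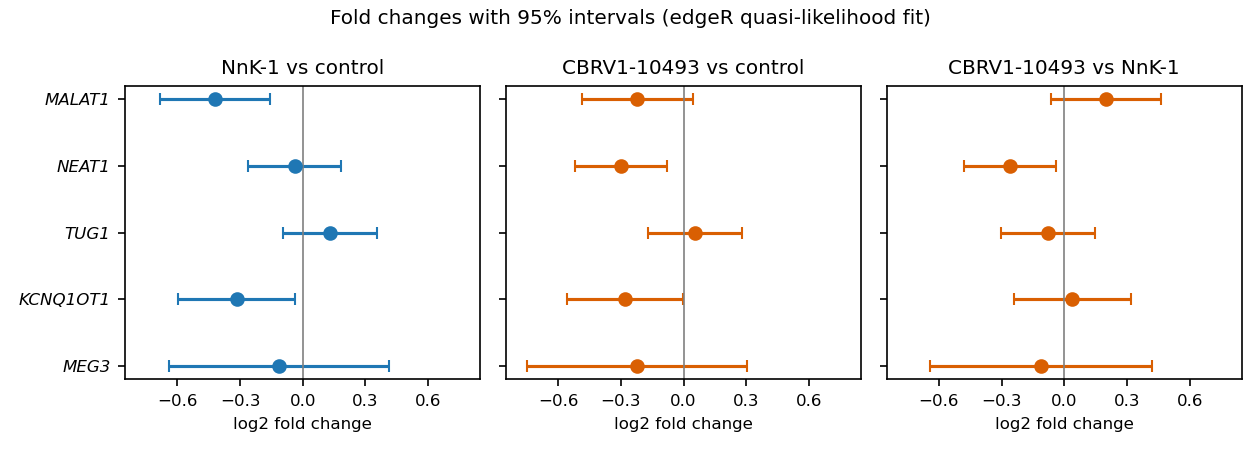
Log2 fold changes (horizontal axis) of the 5 tested lncRNAs in the 3 comparisons; points are estimates and bars 95% intervals from the edgeR quasi-likelihood fit of 9 libraries. The intervals of MALAT1 (NnK-1 against control), NEAT1 (CBRV1-10493 against control and against NnK-1) and KCNQ1OT1 (each peptide against control) end on 1 side of 0 before adjustment, and none passed after it.

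Against control, 4 of the 5 tested lncRNAs lay below 0 with either peptide, where 49.4% and 49.2% of all tested genes did. No lncRNA passed for either peptide, as 0% of all 13676 genes passed by edgeR's quasi-likelihood test. With DESeq2's Wald test 3 and 0 genes passed, and with edgeR's exact test 8 and 2, none of them one of the 6 RNAs. At an unadjusted p under 0.05, MALAT1 and KCNQ1OT1 were lower with NnK-1 (2 of 5). Of all genes 7.32% (1001 genes) had such a p with NnK-1, 3.76% higher and 3.56% lower. NEAT1 and KCNQ1OT1 were lower with CBRV1-10493 (2 of 5), where 2.89% of all genes (395) had such a p, 1.34% higher and 1.55% lower. Groups that did not overlap were found for KCNQ1OT1 with NnK-1 (1 of 5), as for 13.0% of all genes, 5.08% higher and 7.92% lower. With CBRV1-10493 they were found for NEAT1 (1 of 5), as for 8.88% of all genes, 3.91% higher and 4.96% lower. A single RNA out of 5 is near these shares. The median log2 fold change of the 5 was -0.11 for NnK-1 and -0.22 for CBRV1-10493, where the median of all genes was 0.0033 and 0.0027. These counts moved with single libraries: NEAT1 with NnK-1 lay above 0 without control replicate 2, and with CBRV1-10493 MEG3 lay above and TUG1 below 0 without CBRV1-10493 replicate 1. The counts at an unadjusted p under 0.05 moved too. MALAT1 with NnK-1 kept such a p under 20 of 20 alternatives, but KCNQ1OT1 did under 14 of 19, losing it without control replicate 1 or 2 or NnK-1 replicate 2 or 3, or without both libraries that lay apart, which leaves 1 of 5. With CBRV1-10493 KCNQ1OT1 stood just under the threshold and kept it under 10 of 20 alternatives, the replicate block not among them, and NEAT1 under 19 of 20. Without control replicate 2 neither was under it, which leaves 0 of 5.

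**Figure D3:**
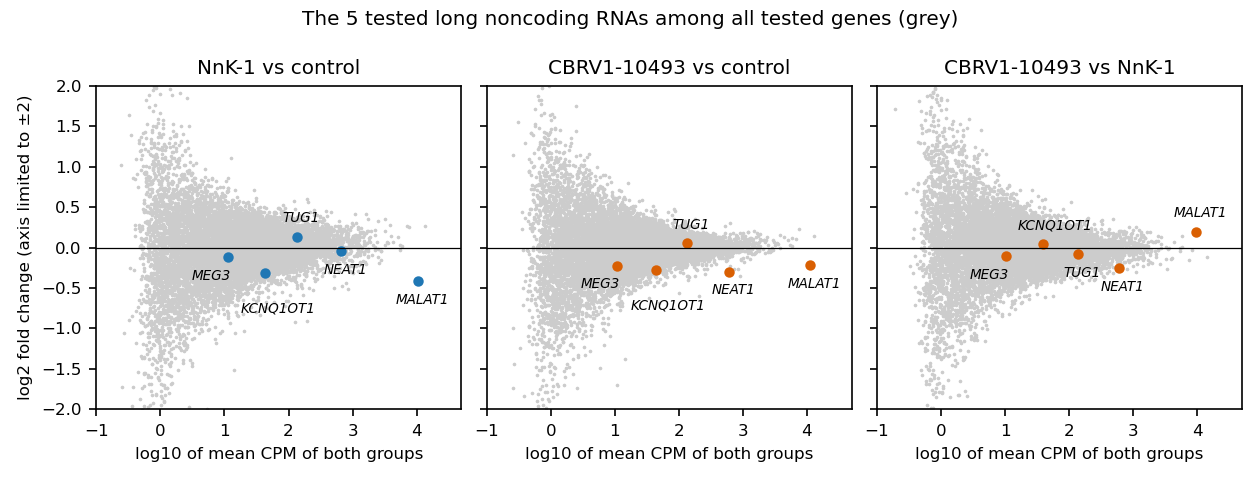
Log2 fold change (vertical axis, limited to ±2, beyond which 48, 37 and 42 genes lie in the panels from left to right) against the log10 of mean CPM for all 13676 tested genes (grey) and the 5 tested lncRNAs (coloured) in each comparison. MALAT1, at the right edge of each panel, stands at -0.42, -0.22 and 0.20.

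The direct comparison of the peptides, at the same dose and time, differed most for NEAT1 and MALAT1, in opposite directions. NEAT1 stood at 542 ± 13.9 CPM with CBRV1-10493 and 643 ± 23.2 CPM with NnK-1 (mean ± SD, n = 3), a log2 fold change of -0.26 (SE 0.11, interval -0.48 to -0.037). It was the 1 RNA of 5 whose groups did not overlap, as did not those of 8.88% of all genes, 4.71% higher and 4.17% lower. MALAT1 was at 0.20 (interval -0.065 to 0.46), with overlap, and at 0.039 without CBRV1-10493 replicate 3 and 0.37 without NnK-1 replicate 3. Neither passed by edgeR's quasi-likelihood test (adjusted p = 0.994 for each, over all genes). For NEAT1, leaving out 1 library at a time gave -0.28 to -0.23. Control replicate 2 is in neither of these 2 groups, but it enters the shared spread and so the SE, interval and p. KCNQ1OT1 was at 0.038 (-0.24 to 0.32), TUG1 at -0.076 (-0.30 to 0.15) and MEG3 at -0.11 (-0.64 to 0.42), intervals that do not show that the peptides act alike on them. At an unadjusted p under 0.05 NEAT1 alone of the 5 was lower (under 18 of 20 alternatives, the exceptions being without NnK-1 replicate 3 or CBRV1-10493 replicate 2), where 4.31% of all genes (589) had such a p, 1.96% higher and 2.35% lower. After adjustment 0% passed by edgeR's quasi-likelihood test, DESeq2's Wald test or edgeR's exact test. With no filter on low counts 1 gene passed, RNU4ATAC.

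The ratio of MALAT1 to NEAT1 counts, a measure within each library that needs no scaling, was 21.3, 15.4 and 17.9 in the controls, 12.7, 12.3 and 16.1 with NnK-1 and 14.9, 19.2 and 22.6 with CBRV1-10493. The NnK-1 and control ranges overlapped through NnK-1 replicate 3 and control replicate 2, and the CBRV1-10493 libraries spanned the control range. MALAT1 made up 90.5% to 94.4% of the counts of all 6 RNAs in every library. The 6 RNAs together took 1.12% to 1.38% of the counts in the control libraries, 0.850% to 1.17% with NnK-1 and 0.893% to 1.32% with CBRV1-10493.

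**Figure D4:**
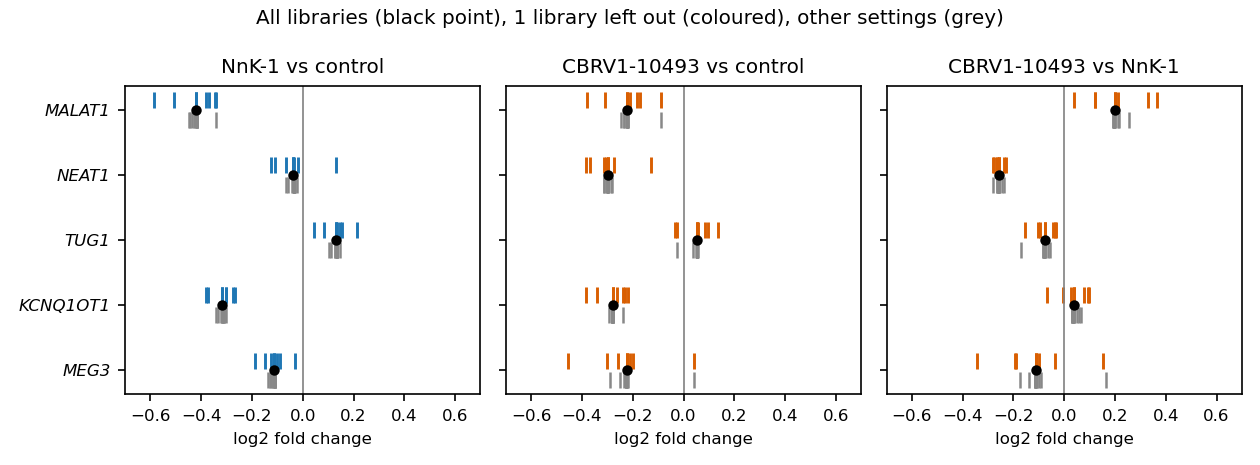
Log2 fold changes (horizontal axis) of the 5 tested lncRNAs in the 3 comparisons with all libraries (black points), with 1 library left out at a time (coloured ticks) and under the other settings (grey ticks). MALAT1 and KCNQ1OT1 stay below 0 against control with either peptide, while NEAT1 with NnK-1 runs from -0.13 to 0.13.

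The lists that follow are read against all tested genes: 49.4% lay below 0 with NnK-1 and 49.2% with CBRV1-10493, 7.32% and 2.89% had an unadjusted p under 0.05, and 13.0% and 8.88% had groups that did not overlap. Proteins that build paraspeckles with NEAT1 were read through their mRNAs: 29 of the 29 listed were tested, and 0 passed in any comparison. With NnK-1 14 lay above and 15 below 0 (median log2 fold change -0.0054), and with CBRV1-10493 8 lay above and 21 below (median -0.031). At an unadjusted p under 0.05 there was 1 gene for each peptide. The smallest p-values belonged to DAZAP1, an RNA-binding protein (184 ± 9.83 CPM in control, 216 ± 20.2 with NnK-1, 186 ± 18.3 with CBRV1-10493), and to the splicing regulator HNRNPH1 (339 ± 31.4, 327 ± 8.38 and 290 ± 25.0 CPM). CPSF7, of the 3′ end cleavage complex, stood at -0.25 with NnK-1 and -0.056 with CBRV1-10493, and TAF15 at -0.19 and -0.11. Summed, the list stood at 5794 to 5917 CPM in the controls, 5750 to 5847 with NnK-1 and 5590 to 5768 with CBRV1-10493.

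Of 34 genes of nuclear speckles and of MALAT1 processing, 33 were tested and 0 passed. With NnK-1 and with CBRV1-10493 alike 13 lay above 0 and 20 below (medians -0.030 and -0.027), and 3 and 2 had an unadjusted p under 0.05, against 7.32% and 2.89% of all genes. U2AF2, which recognises the 3′ splice site, stood at 211 ± 18.1 CPM in control, 162 ± 8.15 with NnK-1 and 173 ± 32.2 with CBRV1-10493 (log2 fold changes -0.35 and -0.27), with no overlap between either peptide and control. POP7, a subunit of RNase P, the enzyme that cuts the MALAT1 end, stood at 122 ± 0.938, 106 ± 9.66 and 99.8 ± 9.61 CPM (-0.17 and -0.27), again without overlap, which 13.0% and 8.88% of all genes showed too. SRSF5 stood at -0.30 and -0.063 and RNPS1 at 0.26 and 0.073.

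Chromatin repressors that lncRNAs are reported to bind, the polycomb proteins and their partners, had 27 of 27 members tested and 0 passing (12 above and 15 below 0 with NnK-1, 14 and 13 with CBRV1-10493), and 2 with an unadjusted p under 0.05 for each peptide. EZH2, the methyltransferase of polycomb complex PRC2, stood at 90.9 ± 3.57 CPM in control, 71.3 ± 6.30 with NnK-1 and 88.5 ± 1.61 with CBRV1-10493. Its log2 fold change was -0.32 with NnK-1 and -0.024 with CBRV1-10493, and 0.30 between the peptides, without overlap in the first and the last. RING1, of the PRC1 complex, stood at -0.33 and -0.26, EHMT1, a histone methyltransferase, at -0.14 and -0.29, and PHF19, a partner of PRC2, at 0.23 and 0.086.

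In the imprinted domains of H19, KCNQ1OT1 and MEG3 many genes were silent or nearly so. Of 32 genes listed, which include some from other imprinted domains, 11 had no count in any library and 16 were tested, with 0 passing (8 above and 8 below 0 with NnK-1, 4 and 12 with CBRV1-10493) and 1 and 0 with an unadjusted p under 0.05. KCNQ1, on whose opposite strand KCNQ1OT1 lies, had 0 counts in all 9 libraries. With 3 counts again taken as the upper limit, this is up to 0.0271 CPM over the 9 libraries together. No source used here says whether counting used strand, so reads of the 2 genes may have been given to 1 of them. IGF2, the partner of H19, had 19 counts and DLK1, of the MEG3 domain, 3 counts over all libraries; these genes were named after their values were seen. CDKN1C, a cell cycle inhibitor that KCNQ1OT1 is known to silence, is the nearest tested gene on 1 side of KCNQ1OT1. It stood at 6.87 ± 1.17 CPM in control, 8.66 ± 1.58 with NnK-1 and 9.06 ± 0.678 with CBRV1-10493, at log2 fold changes of 0.36 (interval -0.16 to 0.88) and 0.41 (-0.11 to 0.93). TSSC4, on the other side, stood at 0.28 and -0.059. The list's smallest p belonged to SNRPN, from another imprinted domain, at 103 ± 6.77, 82.2 ± 2.30 and 90.9 ± 9.22 CPM (-0.30 and -0.17). PHLDA2, silenced on 1 parental copy in the KCNQ1OT1 domain, was not silent in these libraries. Its mean level was 148 CPM in control, 125 with NnK-1 and 141 with CBRV1-10493, at log2 fold changes of -0.22 and -0.054. PLAGL1 stood at -0.38 and -0.35 and PEG10 at 0.16 and -0.076.

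FRMD8 is a tested neighbour of MALAT1 and NEAT1. It stood at 302 ± 46.0 CPM in control, 381 ± 58.0 with NnK-1 and 301 ± 44.6 with CBRV1-10493 (log2 fold changes 0.37, interval 0.086 to 0.64, and 0.012), opposite in sign to MALAT1 with NnK-1 and not passing (edgeR adjusted p = 0.608). Beside TUG1, MORC2, which is read from the opposite strand, stood at -0.21 and -0.32 and SMTN at -0.20 and -0.48. Around MEG3, WDR25 stood at 0.35 and 0.26 and PPP2R5C at -0.065 and -0.17. Around H19, CTSD stood at -0.050 and -0.050, CD81 at -0.017 and -0.035, and the overlapping MRPL23 at -0.37 and 0.035.

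Among 44 matched other lncRNAs and structural RNAs of 48 listed, 31 were tested and 0 passed. Of these 23 lay below 0 with NnK-1 (median -0.086) and 24 with CBRV1-10493 (median -0.072), against shared controls, where 49.4% and 49.2% of all genes did. An unadjusted p under 0.05 was found for 2 and 1 of them, against 7.32% and 2.89% of all genes. OIP5-AS1 stood at 79.8 ± 4.35 CPM in control, 57.2 ± 4.69 with NnK-1 and 74.1 ± 17.8 with CBRV1-10493 (-0.45 and -0.095), with every NnK-1 library below every control. TERC, the RNA template of telomerase, stood at -0.58 and -0.18, BCYRN1 at -0.40 and -0.51, and LINC00657, also called NORAD, at -0.19 and 0.0012. BCYRN1 did not overlap with control for either peptide, nor did LINC00657 with NnK-1, while TERC overlapped for both. Groups that did not overlap were found for 13.0% of all genes with NnK-1 and 8.88% with CBRV1-10493. BCYRN1 has many near-identical copies in the genome, so its counts are uncertain. Of 20 microRNA host genes and microRNAs listed 1 was matched and tested, DLEU2, at 0.35 and -0.041. The counted symbols include 0 that begin with MIR, so the levels of the others are not known here. Of 15 genes that process microRNAs all were tested and 0 passed, with 7 above and 8 below 0 and 1 with an unadjusted p under 0.05 for either peptide. DROSHA, which cuts the primary microRNA, stood at 63.8 ± 6.20, 55.3 ± 1.89 and 51.8 ± 2.44 CPM (-0.18 and -0.29), with every library of either peptide below every control. The Argonaute gene AGO3 stood at -0.54 and 0.11, the helicase DDX17 at 0.16 and 0.0011 and XPO5 at 0.21 and 0.029.

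The genes whose log2 CPM followed each lncRNA most closely over the 9 libraries were listed by Pearson's r among 10617 genes, as a description in which the points share library, depth and group. For MALAT1 they were AKAP9, a scaffold of protein kinase A (r = 0.961), the small Cajal body RNA SCARNA9 (0.954) and BTN3A3 (0.95). For NEAT1 they were RFC5, a clamp loader subunit (0.948), the myosin MYO9A (0.922) and the zinc finger gene ZNF91 (0.888). TUG1 was followed by CLEC2D (0.931), SPR (0.925) and FANCI (0.921), and MEG3 by USP25 (0.967), ZC3H18 (0.932) and NPRL3 (0.926). KCNQ1OT1 was followed by TPRKB (0.954), RGPD5 (0.947) and the condensin subunit SMC2 (0.943). Each was picked as one of the highest of all these values and carries no test.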

How the data were processed

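Per the labels, RNA was read in 9 libraries with QuantSeq 3′ libraries (NextSeq 550, single-end, 75 bp). Bowtie2, bedtools and the build hg19 are named, per the submitters' processing notes. Versions, annotation, strand and overlap settings are not given in the sources used here. Per the labels, edgeR with TMM served for the submitters' own comparison. The authors deposited raw counts per gene symbol without normalization. The 25737 entries were summed by symbol to 24462. CPM is the count over the library total.

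All 13676 genes kept by filterByExpr of edgeR (minimum count 10, minimum total 15) were fitted with TMM and the quasi-likelihood test of edgeR 4.0.16 in R 4.3.3, 9 libraries in 1 fit. Tests were two-sided, p-values were adjusted by Benjamini-Hochberg over all genes, and an adjusted p under 0.05 passed. The script was tested on simulated data. No 2 libraries agreed within sampling noise. The lncRNAs and lists were chosen with earlier results of these data known. Named genes were all 7 lncRNAs, up to 4 members per list with the smallest p against control, the nearest tested neighbours by the order of RefSeq genes (GRCh38.p14), of which 1 is not reported here, the 3 genes with the highest r, and the 5 highest glial markers. Alternatives were DESeq2 1.42.0, limma-voom (limma 3.58.1), edgeR's exact test, other scaling, filters, a replicate block and left-out libraries.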

Additional observations from a re-analysis of the deposited data

How the results depend on the processing

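Each of the 15 fold changes of the tested lncRNAs was recomputed under up to 20 alternatives, giving 298 values, and 287 kept their direction and stayed without a call (DESeq2 gave no adjusted p for MEG3 and KCNQ1OT1 with NnK-1). With no filter on low counts MALAT1 passed for NnK-1 against control (log2 fold change -0.42, edgeR adjusted p = 7.5e-05); in that setting the estimated prior degrees of freedom were infinite, so each gene's own spread had no weight. Over its other alternatives its adjusted p was 0.202 or higher. That setting also passed 74 genes for NnK-1 (27 higher, 47 lower), 6 for CBRV1-10493 and 1 between the peptides. DESeq2's Wald test passed 3 genes for NnK-1, and edgeR's exact test 8 for NnK-1 and 2 for CBRV1-10493, none of them a lncRNA described here; all other alternatives passed 0, as did each fit with 1 library left out (0 to 0 genes). At an unadjusted p under 0.05 there were 1001, 395 and 589 genes in the 3 comparisons.

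Directions turned for 5 of the 15 fold changes. NEAT1 with NnK-1 ran from -0.13 to 0.13 over the fits with 1 library left out, TUG1 with CBRV1-10493 from -0.032 to 0.13, MEG3 with CBRV1-10493 from -0.45 to 0.040, MEG3 between the peptides from -0.34 to 0.15 and KCNQ1OT1 between the peptides from -0.068 to 0.098. Without both libraries that lay apart, TUG1 with CBRV1-10493 was at -0.024, MEG3 with CBRV1-10493 at 0.040 and MEG3 between the peptides at 0.16. The libraries left out were control replicate 2 for NEAT1, CBRV1-10493 replicate 1 for MEG3 and TUG1, control replicate 1 for TUG1, and replicate 3 of either peptide for KCNQ1OT1; the cause was not tested.

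Same-numbered libraries showed little shared deviation (r from -0.0566 to 0.132 over 9 pairs). In both other groups, 2 of 9 libraries correlated best with their own number. No pairing by number was seen, but 3 libraries per group cannot show that the numbers mark no shared culture or batch. With a replicate block 0 genes passed in each comparison, MALAT1 was at -0.44 with NnK-1, NEAT1 at -0.29 and KCNQ1OT1 at -0.28 with CBRV1-10493.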

Other observations

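Programmes known to act on NEAT1 in other cells were read from lists. For 25 p53 targets, all tested, 0 passed, with 11 above and 14 below 0 for NnK-1 (median log2 fold change -0.024) and 13 and 12 for CBRV1-10493 (0.0028), and 0 with an unadjusted p under 0.05 for either peptide by edgeR's quasi-likelihood test. CDKN1A, the p21 inhibitor of the cell cycle, stood at 30.5 ± 4.01 CPM in control, 34.9 ± 4.74 with NnK-1 and 32.5 ± 2.20 with CBRV1-10493. BAX, which promotes cell death, stood at log2 fold changes of -0.53 and -0.075, the DNA repair gene XPC at 0.23 and 0.11, and TIGAR at 0.31 and 0.25. Among 25 hypoxia genes, all tested, 0 passed, with 19 above 0 for NnK-1 (median 0.10) and 15 for CBRV1-10493 (0.029), and 1 with an unadjusted p under 0.05 for each. Over all tested genes 49.4% and 49.2% lay below 0, and 7.32% and 2.89% had such a p. KDM3A, a histone demethylase, stood at 67.9 ± 3.81, 85.01 ± 3.03 and 88.8 ± 14.6 CPM. Neither peptide overlapped with control, as was so for 13.0% and 8.88% of all genes. PDK1 stood at 0.25 and -0.13, PGK1 at 0.15 and 0.091 and MXI1 at 0.20 and 0.25. Of 33 tested interferon-stimulated genes 0 passed, with 27 below 0 for NnK-1 (median -0.32) and 24 for CBRV1-10493 (-0.14) and 10 and 5 with an unadjusted p under 0.05, against the same shares of all genes. IFI44L stood at 16.5 ± 19.9 CPM in control, 2.51 ± 0.536 with NnK-1 and 4.99 ± 1.93 with CBRV1-10493, and MX1 at 21.2 ± 23.4, 7.23 ± 1.86 and 8.03 ± 3.90 CPM. BST2 stood at 8.72 ± 7.82, 2.13 ± 0.489 and 3.07 ± 1.78 CPM, and SAMD9 at log2 fold changes of -0.66 and -0.24. Control replicate 2 was the highest library in their summed level, at 1628 CPM. In control replicates 1, 2 and 3 IFI44L stood at 3.90, 39.5 and 6.23 CPM and MX1 at 6.66, 48.1 and 8.67 CPM. BST2 stood there at 3.49, 17.7 and 4.97 CPM and SAMD9 at 31.2, 48.5 and 35.2 CPM. The control means of these genes thus leaned on control replicate 2. For IFI44L, BST2 and SAMD9 every NnK-1 library was nonetheless below every control, as for 7.92% of all genes, while MX1 overlapped. With CBRV1-10493 each of these genes overlapped with control. They were named for their small p-values within the list.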
